A study of Mus musculus with 4 samples.

Results

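The earliest time point, 0.5 h after low-intensity pulsed ultrasound (LIPUS), was compared with untreated control cells across all measured genes. The comparison uses 2 of the 4 arrays of the study, 1 array per group. It was chosen for its place in the time course and not for its values, but with earlier results of these data known. A gene was represented by its brightest probe set carrying a single symbol. It was counted as measured when at least 1 of the 2 arrays lay above log2 5.23, the median of all values, which left 11575 of 18194 genes.

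ST2 is an established, fibroblast-like stromal line from the bone marrow of BALB/c mice that can support blood cell growth and can be turned towards osteoblasts or adipocytes. Both groups were kept at 37 °C under 5% CO2, in RPMI 1640 medium to which 10% fetal bovine serum was added. The 0.5 h cells received LIPUS at 25 mW per square cm for 20 min and were cultured for a further 0.5 h; the control cells received no ultrasound. Cells harvested 1 h and 3 h after the same exposure gave the other 2 arrays, which are used here only to follow genes picked out at 0.5 h. It is a single line in culture, without bone matrix, and the labels do not say whether control dishes went through the same handling.

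LIPUS is a mild mechanical stimulus used clinically to promote fracture healing. Cells meet abrupt mechanical, chemical or thermal stress with fast transcription programmes. Heat shock factor drives inducible chaperone genes through repeated GAA units in their promoters. The immediate-early genes, such as Fos and Egr1, are switched on within minutes by MAP kinases, through serum response factor at CArG boxes and through CREB at the palindrome TGACGTCA, without new protein synthesis. Many immediate-early genes are short, and their messenger RNAs are short-lived.

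With 1 array per group no test, p-value or standard error can be given, and this number sets how precise any value is. A gene is called higher or lower by a rule of size alone, at least 2-fold or at least 1.5-fold between these 2 arrays. Signals under log2 5.23 were raised to it first, and where that applied to the dimmer array the fold is a lower bound, written "at least". The only error that could be measured was between probe sets of one gene on the same 2 arrays, with an SD of the log2 difference of 0.108 over 5286 genes. It contains no spread between cultures. In bulk RNA, a change in the number of cells of a type and a change in RNA per cell cannot be told apart.

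Most markers of the labelled cell type were bright, and those of other cells were dim or under the floor. Of 15 stromal marker genes 13 were measured. Among the brightest, log2 signals in control and at 0.5 h were 13.88 and 13.81 for Col1a1, the main chain of type I collagen, and 13.36 and 13.47 for the chemokine gene Cxcl12. Pdgfra, at 7.86 and 7.63, and Eng, at 6.55 and 6.48, were much dimmer. Of 12 haematopoietic markers 4 were measured, at most at log2 7.14, and the defining genes Ptprc, Itgam and Adgre1 lay under the floor on both arrays. Kdr, at 5.65 and 5.83, was the 1 endothelial marker measured. Epcam, at 7.48 and 7.41 and so above the stromal Eng, was the 1 epithelial marker. None of the mature adipocyte markers was measured. Array medians were 5.231 in control and 5.215 at 0.5 h, with 22578 and 22468 probe sets above the floor. The 3 probe sets for 18S ribosomal RNA were higher at 0.5 h by 0.22, 0.96 and 1.44 on the log2 scale. All 3 were lowest in control of the 4 arrays. The last of them measured 11.22 in control and 12.66, 13.25 and 13.53 at 0.5, 1 and 3 h. The 5′ minus 3′ signal is a sign of RNA integrity. It differed from control by −0.06 for Gapdh, −0.03 for beta-actin, −0.09 for pyruvate carboxylase and −0.41 for the transferrin receptor. The part of these in the gene values was not tested.

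At 0.5 h the response was small in number and went mostly upward. Of all measured genes 16 (0.138%) were at least 2-fold higher and 0 at least 2-fold lower; at 1.5-fold there were 43 higher genes (0.371%) and 12 lower genes (0.104%). The higher genes included inducible chaperones, immediate-early transcription factors, feedback inhibitors of MAP kinase signalling, splicing kinases and a few secreted factors. Apart from the called genes, the 2 arrays were close: 10984 genes, 94.9%, differed by less than 1.2-fold, the median difference was 0.009 on the log2 scale, and 52.7% of genes lay above 0.

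**Figure D1:**
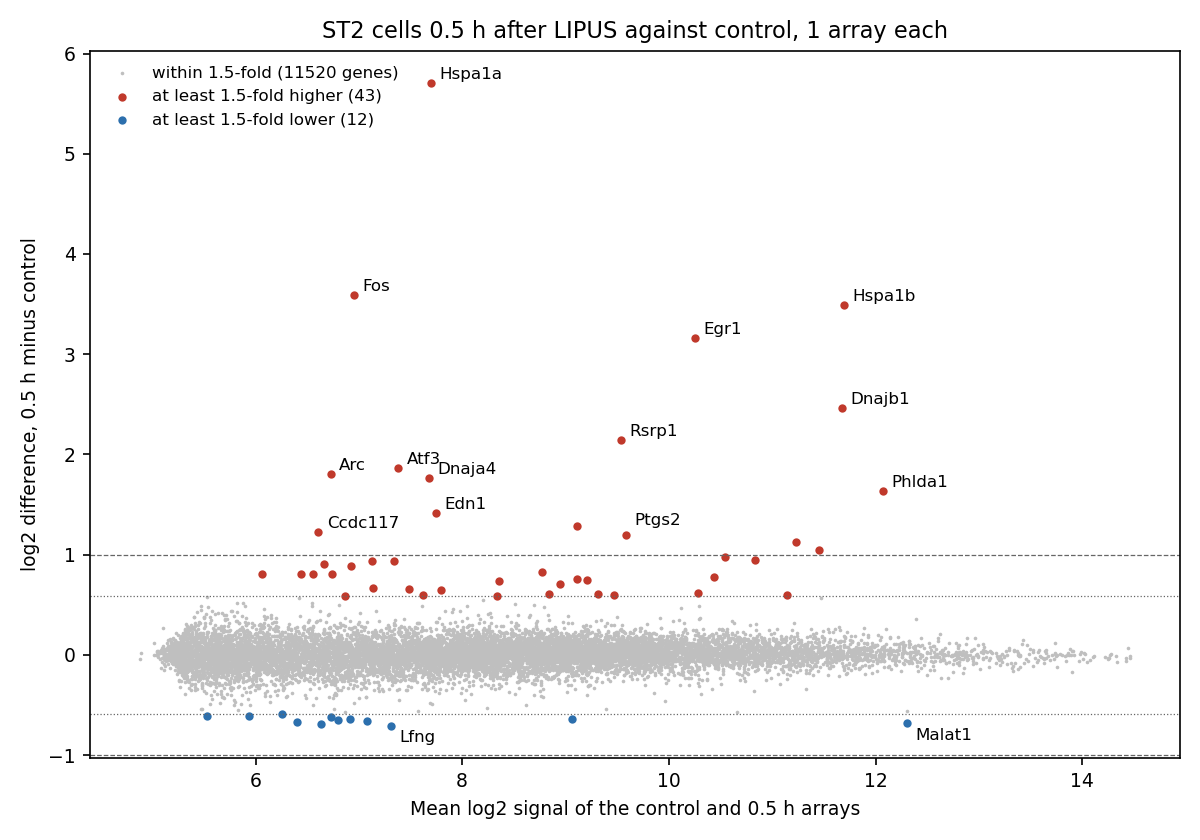
Each point is a gene, with its mean log2 signal on the 2 arrays on the x axis and its log2 difference, 0.5 h minus control, on the y axis; dotted lines mark 1.5-fold, dashed lines 2-fold, and differences of Hspa1a and Fos are lower bounds. The 43 higher genes (red) spread over the whole range of signal and up to 5.71, whereas the 12 lower genes (blue) reach no further than −0.71 and 10 of them lie among the dimmer genes.

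Higher and lower genes were nearly balanced at small folds and not at larger ones. At a threshold of 1.1-fold 1592 genes were higher and 1390 lower, and at 1.2-fold the counts were 302 (2.61%) and 289 (2.5%). At 1.5-fold there were 3.58 higher genes for each lower one. Beyond 2-fold only higher genes remained, with 10 past 3-fold, 6 past 4-fold and 4 past 8-fold. Of the 43 higher genes, 27 lay between 1.5-fold and 2-fold.

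**Figure D2:**
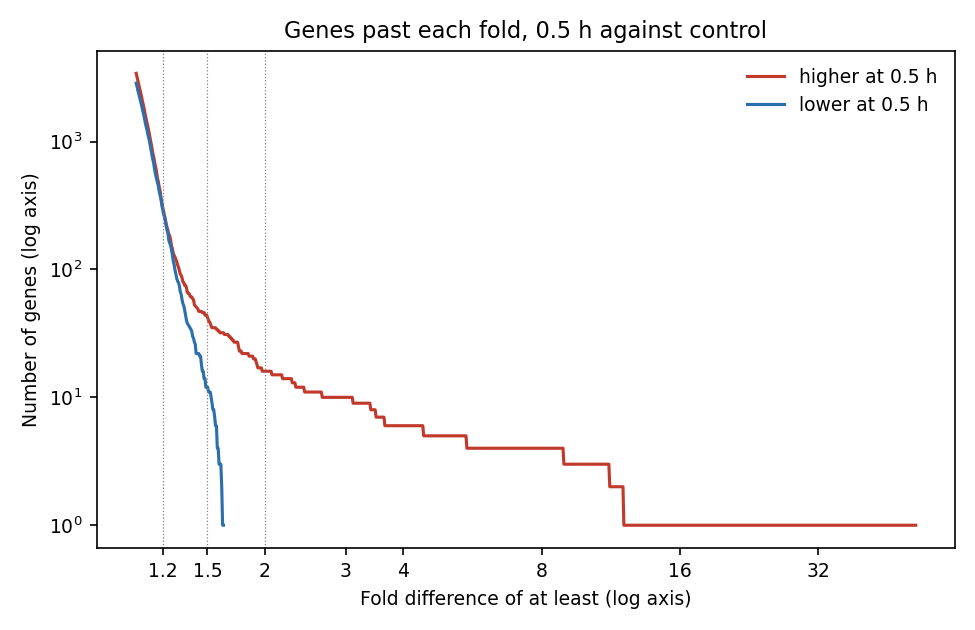
The number of genes whose difference reaches at least a given fold (both axes logarithmic), for genes higher (red) and lower (blue) at 0.5 h than in control. The curves run close together up to 1.2-fold, where 302 genes are higher and 289 lower, and separate beyond it, with 43 against 12 at 1.5-fold and 16 against 0 at 2-fold.

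The choice of a 1.5-fold limit falls inside a continuous run of values. The last genes inside it were Ccl2 at 0.59, Slc30a1 at 0.59 and Hspb1 at 0.59 on the log2 scale, and the first outside were Cdx2 at 0.58, the long noncoding RNA gene Neat1 at 0.57, the zinc finger factor gene Klf6 at 0.56 and Tiparp at 0.55. Among lower genes Hic2, at −0.59, was the last inside, and Bach2 and Ajuba, both at −0.57, the first outside.

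Chaperone genes formed the strongest group, and it was the inducible members that differed. Chaperones were taken in 3 lists: HSP70 proteins, their DNAJ partners, and small heat shock proteins with BAG co-chaperones. Like all lists here, they were written with results of these data known. Of their 50 measured members 9 were at least 1.5-fold higher and none lower, beside 0.371% and 0.104% of all genes. The rest stayed close to control: list medians were 0.09, 0.03 and 0.07 on the log2 scale, beside 0.009 for all genes. The promoter stretches of 4 of the 9 are shown because they carry a pair of facing GAA units, GAANNTTC, the core of a heat shock element. They are RefSeq sequences of GRCm38.p6, 140 bases ending just before the annotated start, 5′ to 3′ on the gene's strand, with the units in capitals.
Hspa1a, chr17:34972157-34972296, minus strand: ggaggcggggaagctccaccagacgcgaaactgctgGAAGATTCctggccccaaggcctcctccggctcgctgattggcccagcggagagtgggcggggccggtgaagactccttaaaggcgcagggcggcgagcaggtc
Hspa1b, chr17:34959239-34959378, minus strand: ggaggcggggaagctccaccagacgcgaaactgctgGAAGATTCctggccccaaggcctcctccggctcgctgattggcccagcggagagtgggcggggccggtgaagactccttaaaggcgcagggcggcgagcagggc
Hspb1, chr5:135887779-135887918, plus strand: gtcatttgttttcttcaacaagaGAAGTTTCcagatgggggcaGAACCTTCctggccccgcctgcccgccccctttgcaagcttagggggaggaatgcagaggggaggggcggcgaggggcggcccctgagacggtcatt
Dnaja4, chr9:54699419-54699558, plus strand: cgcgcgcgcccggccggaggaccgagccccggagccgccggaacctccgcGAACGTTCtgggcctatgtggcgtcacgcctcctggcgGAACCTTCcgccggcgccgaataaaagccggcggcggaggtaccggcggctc

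In the neighbouring genes Hspa1a and Hspa1b the unit begins 104 bases before the start, and the 2 stretches are identical at 139 of 140 positions (99.3%). In Hspb1 units begin 117 and 97 bases before the start, and in Dnaja4 90 and 52 bases before it. Searched on both strands in windows from 250 bases before to 50 bases after the start, GAANNTTC or TTCNNGAA was found in 7 of the 8 higher chaperone genes that have a window (87.5%) and in 5 of 23 other higher genes (21.7%). Among all measured genes with a window, 1294 of 9341 (13.9%) carried it, and 15.1% of all windows did.

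Hspa1a, the stress-inducible HSP70 chaperone, had log2 signals of 4.47 in control and 10.93, 11.28 and 8.66 at 0.5, 1 and 3 h. Its control signal lay under the floor, so it was at least 52.3-fold higher at 0.5 h, and all 3 LIPUS arrays stood above the control. Hspa1b, which encodes nearly the same protein, measured 9.95, 13.44, 13.46 and 12.77 in that order, a log2 difference of 3.49 at 0.5 h, and its other 2 probe sets gave 3.50 and 3.71. Because the pair share most of their transcript, their probe sets may pick up each other's signal.

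Hsph1, a nucleotide exchange factor for HSP70, went from 10.93 to 11.98 at 0.5 h and continued to 12.30 at 1 h and 12.70 at 3 h. It was thus lowest in control and highest on the last array, unlike most higher genes. The remaining 10 measured HSP70 genes lay between −0.03 for Hspa13 and 0.18 for Hspa4l, and the constitutive Hspa8 had a difference of 0.12.

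Among DNAJ co-chaperones, which hand clients to HSP70, Dnajb1 measured 10.44 in control and 12.90, 13.14 and 10.71 at 0.5, 1 and 3 h. It was 5.50-fold higher at 0.5 h and back within 0.26 of control on the log2 scale at 3 h. Dnaja4 measured 6.79, 8.56, 8.92 and 9.18, a difference of 1.77, and its 2 dimmer probe sets gave 2.39 and 1.39. At 3 h its probe sets disagreed on the course, with 2 of the 3 highest there and the third down from 8.86 at 1 h to 8.25. Dnajb4, from 10.84 to 11.44, was the third of 24 measured members past 1.5-fold, at 0.60. Of all genes 0.371% were that much higher. Dnajc7 at 0.29 and Dnaja1 at 0.27 came next, and Dnajc27, at −0.26, was lowest.

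Of 13 measured small heat shock protein and BAG genes, 3 were at least 1.5-fold higher, beside 0.371% of all genes. Bag3, which couples HSP70 to autophagy, measured 10.67 in control and 11.80, 11.98 and 11.21 at 0.5, 1 and 3 h. Cryab, the alphaB-crystallin chaperone, measured 10.05, 10.82, 10.998 and 11.04, and Hspb1, the small heat shock protein HSP27 homologue, 7.32, 7.91, 7.80 and 8.14. The last array was the highest for both by these probe sets, and for the second probe set of Hspb1, but that of Cryab was highest at 0.5 h, at 10.19 against 10.06 at 3 h. Hspb8 was at 0.23 and Bag5, at −0.09, was lowest.

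Other arms of protein quality control held 1 member past 1.5-fold higher, beside 0.371% of all genes. None of 22 measured HSP90, chaperonin and HSP90 co-chaperone genes passed 1.2-fold, with a range from −0.10 for Cdc37 to 0.22 for Ahsa2. None of 31 proteasome subunit genes passed it either, although 24 of them lay above 0, beside 52.7% of all genes, with a median of 0.05. Of 26 genes of the unfolded protein response of the endoplasmic reticulum none passed 1.5-fold, and Syvn1, at −0.26, was the 1 member past 1.2-fold. Zfand2a, which encodes an arsenite-inducible partner of the proteasome, was the 1 of 13 genes of the proteotoxic ubiquitin response past 1.5-fold, from 9.01 to 9.61, and its window also carried the GAANNTTC or TTCNNGAA motif.

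Immediate-early transcription factors were the second group, and within it the differences went both ways. Fos, the inducible partner in the AP-1 factor, measured 5.08 in control and 8.82, 7.76 and 5.70 at 0.5, 1 and 3 h, at least 12.1-fold higher at 0.5 h. Egr1 measured 8.68, 11.83, 10.83 and 8.84, a difference of 3.16. Both stood highest at 0.5 h, by at least 1.00 on the log2 scale above the next array.

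Atf3, a stress-induced ATF factor, measured 6.45 in control and 8.31, 8.71 and 6.03 at 0.5, 1 and 3 h. Jun, the AP-1 partner of Fos, measured 10.36, 11.31, 10.99 and 10.35, a difference of 0.95. These 3, Fos, Atf3 and Jun, were the members past 1.5-fold higher among 15 measured FOS, JUN and ATF genes, beside 0.371% of all genes. The list median was −0.06. Jund, at −0.34, and Fosl2, at −0.30, were past 1.2-fold lower, and Junb was at 0.12.

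Of 25 measured EGR, NR4A and other immediate-early genes, 4 were past 1.5-fold higher, beside 0.371% of all genes, and the median was −0.01. Arc, an activity-regulated gene best known from neurons, measured 5.83 in control and 7.63, 7.44 and 5.74 at 0.5, 1 and 3 h. Egr2 measured 6.48, 7.37, 6.88 and 6.31. Among the 31 higher genes with a promoter window it was the 1 with a CArG box (3.23%), beside 1.57% of measured genes with a window. Egr1, Arc, Ier2 and Phlda1 have no window and were not searched, and the windows reach only 250 bases before the start. The box begins 72 bases before one annotated start of Egr2, shown for that reason with the box in capitals (RefSeq, GRCm38.p6, 140 bases ending before the start).
Egr2, chr10:67537729-67537868, plus strand: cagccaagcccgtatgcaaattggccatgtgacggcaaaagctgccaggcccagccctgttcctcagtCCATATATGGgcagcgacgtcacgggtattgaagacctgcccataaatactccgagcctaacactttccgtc

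Zfp36l1 and Zfp36l2, paralogues that bind AU-rich elements and speed decay of messenger RNAs, went opposite ways. Zfp36l1 measured 8.36 in control and 9.19, 9.31 and 8.78 at 0.5, 1 and 3 h. Zfp36l2 measured 12.58, 12.02, 12.37 and 12.70, so its 0.5 h value was the lowest of the 4 and its difference, −0.56, fell just short of 1.5-fold.

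A like split was seen among IER and BTG/TOB genes, early response genes and antiproliferative factors. Ier2 measured 8.83 in control and 9.58, 9.20 and 8.94 at 0.5, 1 and 3 h, and Btg2 measured 6.80, 7.47, 7.69 and 6.75. These were 2 of 8 members past 1.5-fold higher, beside 0.371% of all genes. Against them, Ier3 went from 8.93 to 8.57 and was back at 9.17 at 1 h. Among 13 KLF zinc finger factors none passed 1.5-fold. Klf6, from 11.20 to 11.76, was the 1 member past 1.2-fold, and the median was −0.06.

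Of 23 measured feedback regulators of MAP kinases 8 were past 1.2-fold higher and 1 lower, beside 2.61% and 2.5% of all genes. Phlda1, an early gene with a pleckstrin-homology-like domain, measured 11.26 in control and 12.89, 12.83 and 11.11 at 0.5, 1 and 3 h. Dusp1, a phosphatase that switches off MAP kinases, measured 10.05, 11.03, 10.57 and 10.44, a difference of 0.98. Errfi1, an inhibitor of the EGF receptor, was at 0.76, the ERK phosphatase gene Dusp6 at 0.71 and Dusp4 at 0.52.

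These feedback genes did not all move alike. Dusp4 measured 5.56 in control and 6.08, 5.57 and 5.31 at 0.5, 1 and 3 h, so it stood apart on the 0.5 h array alone. Spred1, an inhibitor of RAS signalling, went from 9.44 to 9.12, and Dusp5 from 9.85 to 9.69.

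The palindrome TGACGTCA was found in the windows of 5 of the 31 higher genes that have one (16.1%), namely Btg2, Clk4, Dusp1, Errfi1 and Zfand2a. It was found in 3.59% of measured genes and 1.79% of all windows, and in none of the 8 higher chaperone genes with a window. Dusp1 and Btg2 are shown as the feedback and the antiproliferative member of these 5, from 200 to 61 bases before the start (RefSeq, GRCm38.p6), with the palindrome in capitals. It begins 143 bases before the start in Dusp1 and 166 bases before it in Btg2.
Dusp1, chr17:26508533-26508672, minus strand: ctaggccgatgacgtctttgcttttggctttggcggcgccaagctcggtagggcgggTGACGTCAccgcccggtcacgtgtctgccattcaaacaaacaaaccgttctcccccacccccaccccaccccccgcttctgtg
Btg2, chr1:134079216-134079355, minus strand: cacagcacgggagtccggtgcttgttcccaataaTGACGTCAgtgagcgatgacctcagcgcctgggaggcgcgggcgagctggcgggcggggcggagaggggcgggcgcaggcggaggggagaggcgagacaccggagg

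Other short motifs, searched on both strands, were CCAAT in 64.5% of the higher genes with a window against 42.9% of all measured genes, TATAAA in 19.4% against 8.72%, and TGANTCA in 6.45% against 6.06%. The windows cover 300 bases and 31 of 43 higher genes, with 1.32 windows per gene against 1.28 for all measured genes. A match is a run of letters and not a shown binding site.

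Of 25 measured splicing regulators 3 were at least 1.5-fold higher, beside 0.371% of all genes. Rsrp1, named for the arginines and serines of its product, measured 8.46 in control and 10.61, 9.77 and 8.85 at 0.5, 1 and 3 h, and its other probe sets gave 2.28 and 2.03 beside 2.14. The kinase genes Clk1 and Clk4, whose products phosphorylate SR splicing factors, measured 8.47, 9.75, 9.22 and 8.60 for Clk1 and 6.87, 7.81, 7.38 and 6.85 for Clk4. All 3 were highest at 0.5 h and near control at 3 h.

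Among the other 22 of 25 measured members of that list, Luc7l at 0.50 and Rbm25 at 0.36 were highest and Srrm2, at −0.24, lowest. The SR and hnRNP proteins themselves stayed within 1.2-fold in all 24 measured genes, with a median of 0.04. Above 0 lay 21 of them, beside 52.7% of all genes. Of 13 nuclear noncoding RNAs and paraspeckle genes, 4 were past 1.2-fold higher and 2 lower, beside 2.61% and 2.5% of all genes. Neat1, the scaffold RNA of paraspeckles, was at 0.57 and the paraspeckle protein gene Pspc1 at 0.43, while the nuclear RNA genes Malat1 and Kcnq1ot1 were at −0.68 and −0.29. The list had the highest median, 0.18, but the second brightest probe sets gave −0.00 over 10 genes.

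Secreted signals were few. Edn1, which encodes endothelin-1, measured 7.04 in control and 8.45, 7.82 and 7.51 at 0.5, 1 and 3 h, and Ptgs2, the inducible prostaglandin synthase COX-2, measured 8.99, 10.18, 9.72 and 8.78. In the prostaglandin and endothelin list 9 of 11 measured genes lay above 0, beside 52.7% of all genes. Ptger4, a receptor for prostaglandin E2, was next at 0.40. The list median was 0.17, and 0.06 over 17 genes when no floor was set.

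The adjacent chemokine genes Ccl2 and Ccl7, both attractants of monocytes, were the higher members among 14 measured chemokine and cytokine genes. Of all genes 0.371% were past 1.5-fold higher. Ccl7 measured 6.16, 6.96, 6.79 and 6.55, and Ccl2 6.58, 7.16, 7.16 and 6.51. Of 20 measured growth factors and cytokines of bone repair none passed 1.5-fold. Ccn1, a matricellular protein and early gene, was highest at 0.36, and Hbegf, an EGF receptor ligand, lowest at −0.21. Among 19 NF-kB genes none passed 1.5-fold, and Tnfaip3, an inhibitor of NF-kB, at 0.47 and the subunit gene Rel at 0.43 were highest.

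Stress and metabolic genes outside the chaperones added single members. Hmox1, the inducible haem oxygenase, was the 1 of 18 NRF2 target and metallothionein genes past 1.5-fold, from 9.18 to 9.77. Gadd45g, a growth arrest gene, joined Atf3 among 25 genes of the integrated stress response. Of these 25 genes 6 were past 1.2-fold higher and none lower, beside 2.61% and 2.5% of all genes. Cholesterol synthesis genes showed a small shared shift, with 19 of 20 above 0 and a median of 0.17 but 1 member past 1.2-fold, Pmvk at 0.27. Mitochondrial respiratory chain genes were above 0 in 21 of 27, with a median of 0.08. Among all genes 52.7% lay above 0 and 0.371% were past 1.5-fold higher.

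Genes of adhesion, the actin cytoskeleton and mechanosensitive channels, which sense and carry mechanical load, included no member past 1.5-fold. Of 23 integrin and focal adhesion genes 5 lay above 0, and Itga5, the fibronectin receptor chain, was lowest, from 11.01 to 10.65. The actin list also holds targets of serum response factor and MRTF. Of its 30 genes 6 lay above 0, with a range from −0.17 to 0.16. Of 16 mechanosensitive channel genes 3 lay above 0, with a median of −0.08, the lowest of the lists. Beside these counts, 52.7% of all genes lay above 0.

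No collagen gene among 19 measured passed 1.5-fold, nor did any of 10 osteoblast lineage genes, 24 TGF-beta genes or 23 ID and BMP target genes. Of 18 measured clock genes 5 were past 1.2-fold lower, beside 2.5% of all genes, with Cry2 at −0.42, Per1 at −0.38 and Nr1d1 at −0.34, and 6 lay above 0. The 1 member past 1.2-fold higher was Nfil3, a repressor of clock output, which measured 7.99 in control and 8.73, 9.13 and 8.38 at 0.5, 1 and 3 h.

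Over the 55 gene lists, with 1018 measured genes, 19 held at least 1 higher member past 1.5-fold, 3 held a lower one and 33 held neither. The lists were written with results of these data known, so that 35 of 43 higher genes fall in them is no finding. List medians ran from −0.08 to 0.18, and 51 of 55 were within 0.1 of 0.

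**Figure D3:**
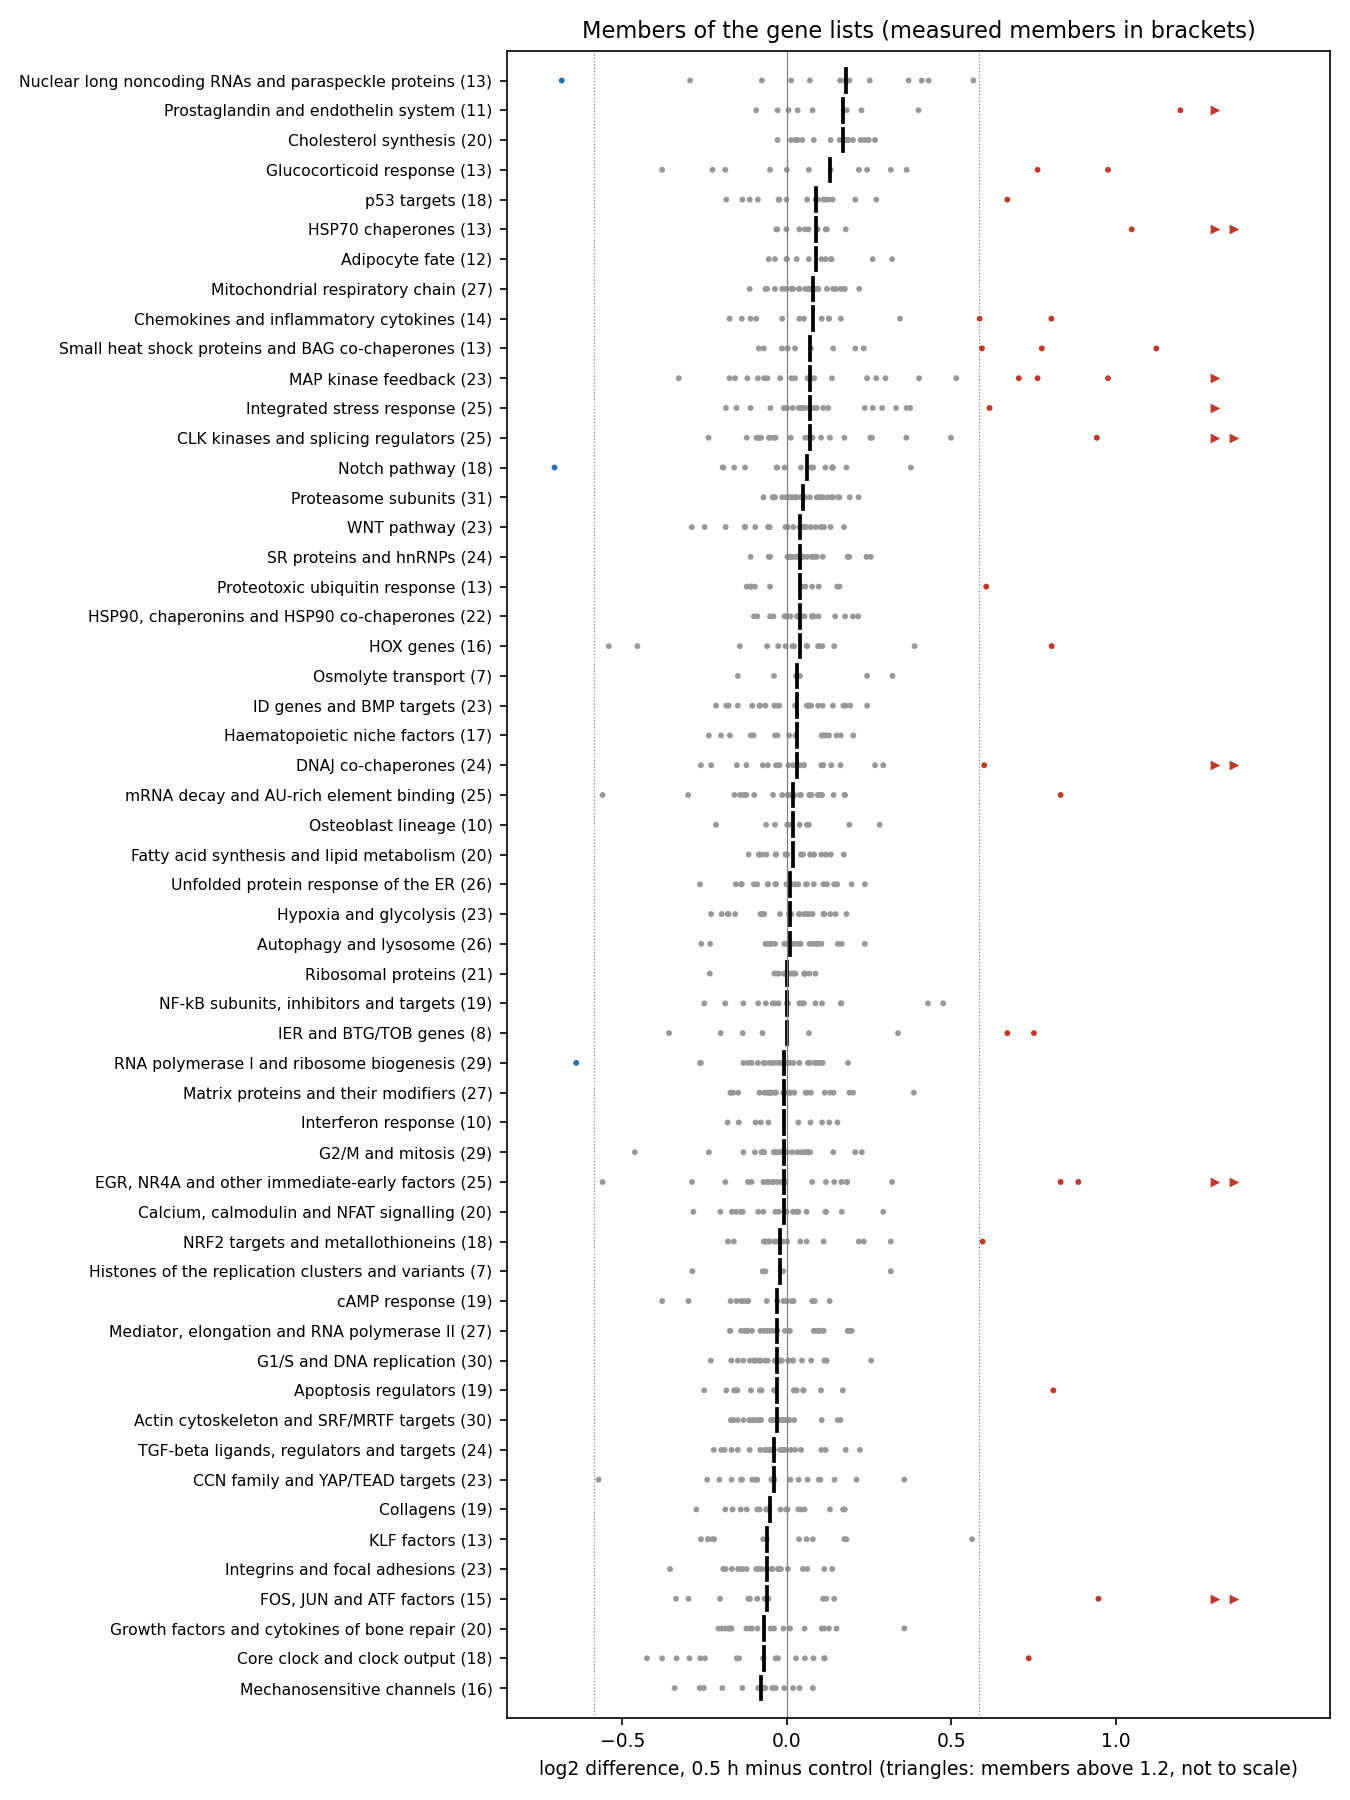
Points are the log2 differences (0.5 h minus control) of the measured members of each gene list, black bars the list medians; members at least 1.5-fold higher are red, lower blue, and those above 1.2 are drawn as triangles at the right edge, not to scale. Medians stay between −0.08 and 0.18 in all 55 lists, while single members of the chaperone, immediate-early, MAP kinase feedback and splicing kinase lists lie far to the right.

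The 8 higher genes outside the lists were a mixed set. Ccdc117 measured 5.998 in control and 7.22, 6.66 and 5.91 at 0.5, 1 and 3 h, and its second probe set gave 1.04 beside 1.22. Tent5a, which encodes a nucleotidyltransferase linked to bone formation, measured 6.67, 7.60, 7.92 and 6.97. Krtap1-5, a keratin-associated protein gene, measured 6.21, 7.12, 7.49 and 7.39 and stayed high.

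The others were Purg, a single-stranded nucleic acid binding protein gene, at 0.81, Khdc4, an RNA-binding protein gene, at 0.66, and Csrnp2, a nuclear protein gene, at 0.65, with Txnip and Slc30a1, named after their values were seen. Txnip, an inhibitor of thioredoxin, measured 8.53 in control and 9.14, 9.16 and 9.12 on the LIPUS arrays, and its second probe set gave 0.16. Slc30a1, a zinc exporter, measured 8.05, 8.63, 8.68 and 7.95. Hoxb6, a homeobox gene, was the 1 higher member among 16 HOX genes, at 0.81. Dedd2, a death effector domain gene, was the 1 among 19 apoptosis regulators, at 0.81. Of all genes 0.371% were past 1.5-fold higher.

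The 12 lower genes were weaker and less firmly measured. Lfng, a glycosyltransferase that modifies Notch receptors, measured 7.66 in control and 6.96, 7.68 and 7.57 at 0.5, 1 and 3 h, the lowest difference of all genes at −0.71, and it was low on the 0.5 h array alone. Its second, dimmer probe set gave −0.28. Ggcx, the vitamin K-dependent carboxylase, measured 6.98, 6.29, 6.02 and 6.26, so that the control array stood above the other 3. Ccnf, the F-box protein cyclin F, measured 9.38, 8.75, 8.61 and 9.13, and its second probe set gave −0.71 beside −0.63.

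Polr1b, a subunit of RNA polymerase I, was at −0.64, Lcmt2, a transfer RNA modifying enzyme gene, at −0.65, Fam83h at −0.66, with its second probe set at −0.12, and the uncharacterised 9930012K11Rik at −0.62. Hic2, a transcriptional repressor gene, was at −0.59, with its other 2 probe sets at −0.41 and −0.45. Ppargc1b, a nuclear receptor coactivator gene, was under the floor at 0.5 h, so its difference of −0.61 is a lower bound in size. The last of the 12 is a probe set annotated to Mir1949; what it measures of that locus was not tested.

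For 2 of the 12 the probe sets disagreed. The 3 brightest of 7 probe sets of Malat1, an abundant nuclear RNA, gave −0.68, −0.68 and −0.76, and the others −0.09, 0.11, −0.12 and 0.74. Tmem186 was at −0.61 by its brightest probe set and at −0.05, 0.10 and 0.19 by the other 3. Over the higher genes, 20 have more than 1 measured probe set, with all in the same direction in 20 and all past 1.5-fold in 14; of 6 such lower genes these counts were 4 and 1.

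On the later arrays some of the higher genes were already below their 0.5 h value and others above it. Of 43 higher genes the highest LIPUS value of the brightest probe set was at 0.5 h for 18, at 1 h for 21 and at 3 h for 4. At 3 h 35 of them were back within 1.5-fold of control. Of 12 lower genes 8 were lowest at 0.5 h, and 11 were within 1.5-fold of control at 3 h. All 3 differences use the same control array, so an unusual control value would appear at each time. Among all measured genes, 0.948% were 1.5-fold higher and 0.33% lower at 1 h, and 0.346% higher and 0.181% lower at 3 h; the shares at least 2-fold higher were 0.191% and 0.0691%.

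**Figure D4:**
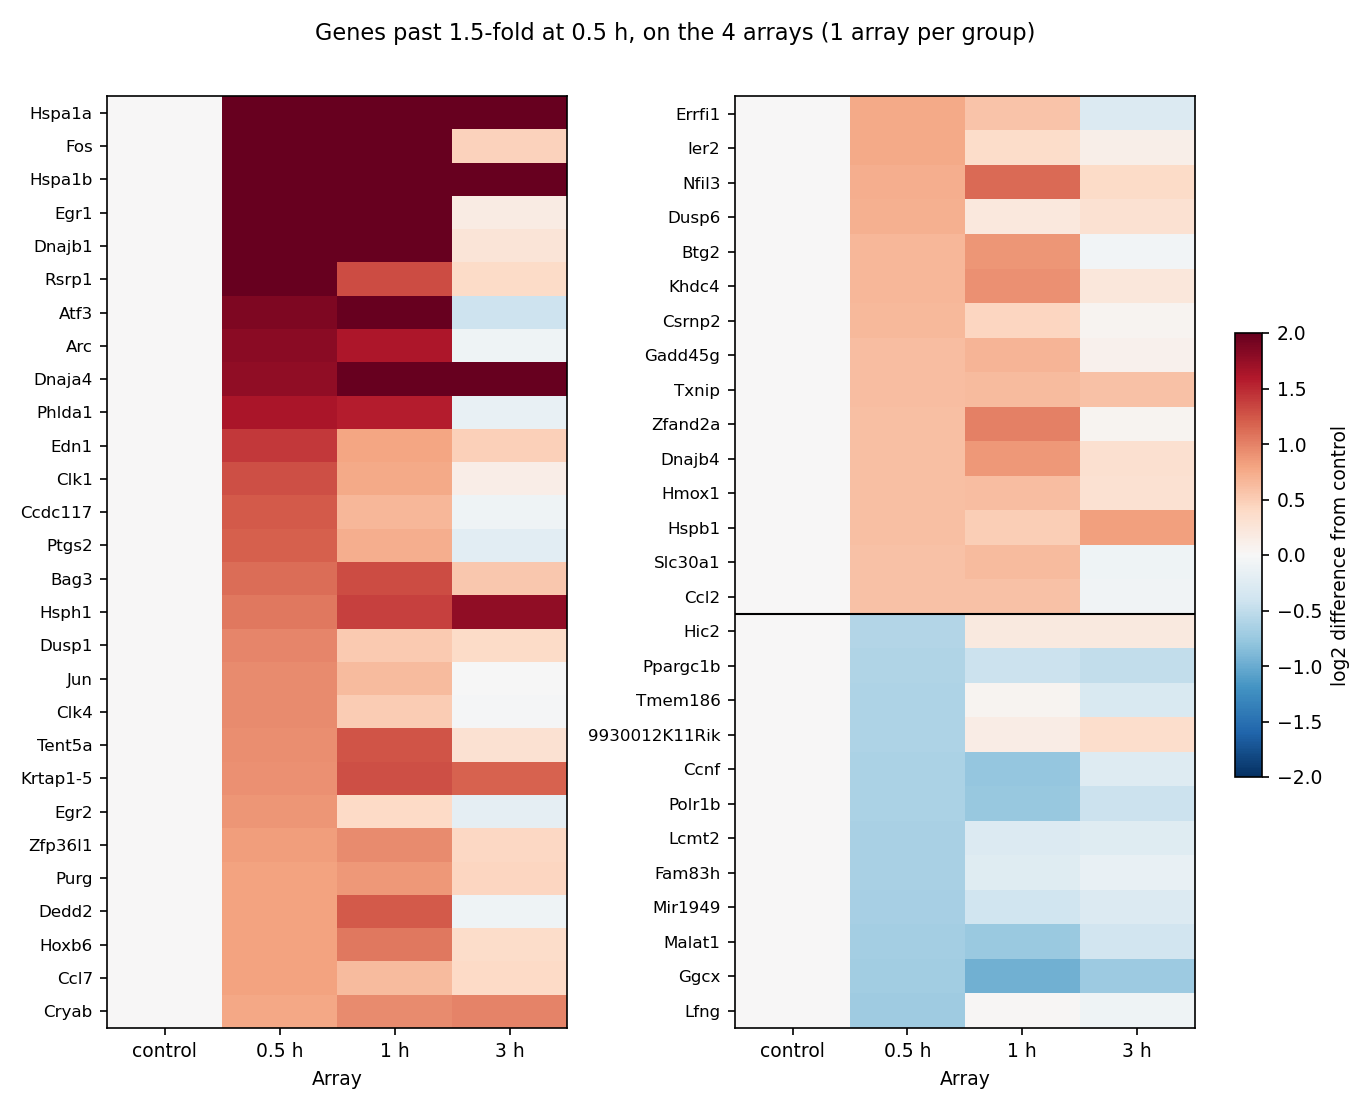
The log2 difference from control on each of the 4 arrays for the 43 higher genes and, under the black line, the 12 lower genes, in order of the 0.5 h difference; values under the floor were raised to it, and colours end at −2 and 2. Most rows fade by 3 h (35 of 43 higher genes within 1.5-fold of control), while Hspa1a, Hspa1b, Dnaja4 and Hsph1 stay dark.

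The control array did stand apart for some of these genes. It was at least 1.5-fold below all 3 LIPUS arrays for 7 genes, Cryab, Dnaja4, Hspa1a, Hspa1b, Hsph1, Krtap1-5 and Txnip, and above all 3 for Ggcx. The 0.5 h array was at least 1.5-fold above all 3 others for Edn1, Egr1, Fos and Rsrp1, and below all 3 for 9930012K11Rik, Hic2 and Lfng.

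The higher genes were short. Their median span from start to end in the RefSeq annotation was 6.55 kb, against 22.6 kb for all measured genes, and 27 of 43 (62.8%) were under 10 kb against 25.9% of all. None was over 50 kb, against 26.4% of all; the longest was Purg at 31.9 kb. The 12 lower genes had a median of 10.7 kb. With genes in 4 equal groups by span, 27, 12, 4 and 0 were higher from the shortest to the longest group, which is 0.937%, 0.416%, 0.139% and 0% of each.

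The SD of the differences was 0.229 in the shortest and 0.125 in the longest group. These SDs include the called genes, so they are no separate measure of spread. The share past 1.2-fold lower was 2.71%, 2.5%, 2.29% and 2.46% from the shortest to the longest group. By signal, 4 equal groups from dim to bright held 3, 17, 11 and 12 higher genes and 4, 6, 1 and 1 lower genes. The part that spread and signal have in the difference in span was not tested.

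Along the chromosomes there were 2 pairs of higher genes within 50 kb of each other, Hspa1a with Hspa1b and Ccl2 with Ccl7. The 67 other measured neighbours within 50 kb of a higher gene had a median difference of 0.00, from −0.37 to 0.39, and 1 was past 1.2-fold higher (1.49%) and 2 lower (2.99%), beside 2.61% and 2.5% of all genes. Lsm2 and Neu1, beside the Hspa1 pair, were at −0.10 and 0.09.

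A pattern below 1.5-fold, chosen after its values were seen, concerned the zinc finger genes of the Zfp and Zbtb symbol families, many of which encode DNA-binding transcription factors. Of 256 measured Zfp genes 29 (11.3%) were past 1.2-fold lower and 5 (1.95%) higher, against 2.5% and 2.61% of all genes. Their median was −0.04, with 35.5% above 0, but it was 0.02 over the 68 genes left with the floor at the 75th percentile. Of 36 Zbtb genes 4 (11.1%) were lower and none higher past 1.2-fold, with a median of −0.10. Leaving out Zfp36, Zfp36l1 and Zfp36l2, which bind RNA, left 28 lower and 4 higher Zfp genes among 253. The 2 families were picked from all symbol families with at least 20 measured genes. Medians of these ran from −0.103 for Zbtb to 0.076 for Gtf. Usp had −0.053 with 31% of 42 genes above 0, and Kif −0.042 with 33.3% of 27. Of 32 Map genes 12.5% were past 1.2-fold lower and 3.12% higher. A low median was thus not particular to zinc finger genes.

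In the Zfp and Zbtb genes the dip was seen on the 0.5 h array and not on the next. Family medians were 0.06 at 1 h and 0.06 at 3 h for Zfp genes, and 0.05 and 0.04 for Zbtb genes, against the same control. The 0.5 h array was the lowest of the 4 for 43% of Zfp genes and 44.4% of Zbtb genes, beside 19.2% of all genes. Examples are Zfp799, with 7.19 in control and 6.72, 7.36 and 7.29 at 0.5, 1 and 3 h, and Zfp871, with 9.41, 9.01, 9.37 and 9.56.

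Zfp genes were mostly dim, and dim genes were more often past 1.2-fold in either direction. Within the 4 signal groups, from dim to bright, 13.9%, 10.6%, 7.14% and 11.1% of Zfp genes were past 1.2-fold lower, against 3.99%, 3.1%, 1.44% and 0.624% of genes of neither family. The third group held 42 Zfp genes, 3 of them lower, and the brightest 9, with 1 lower, the RNA-binding Zfp36l2. Zfp medians from dim to bright were −0.087, −0.032, 0.045 and 0.017, against 0.0, −0.003, 0.015 and 0.019 for genes of neither family. In the 2 brighter groups the Zfp median was thus not below 0. Zbtb medians were −0.072, −0.086, −0.157 and −0.164 from dim to bright, over 11, 14, 10 and 1 genes. Over all genes 51 were at least 1.2-fold lower at 0.5 h than on each of the other 3 arrays, and 12 of these (23.5%) were of the Zfp and Zbtb families, which make up 2.52% of genes; of 30 genes higher than on each other array none was. Others among the 51 were Ier3, the cytokine signalling inhibitor gene Socs3, from 8.53 to 8.22, and the histone demethylase gene Kdm6b, from 8.20 to 7.93.

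**Figure D5:**
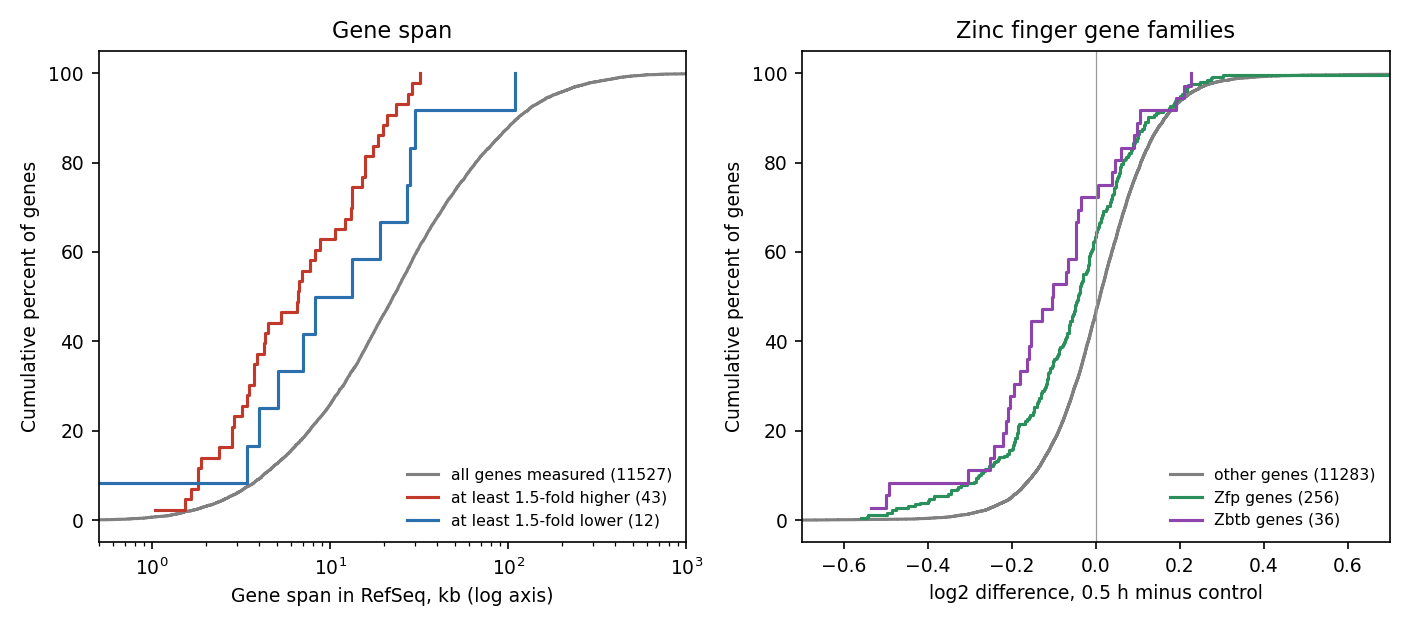
Left, cumulative percent of genes by RefSeq gene span (log axis) for all measured genes (grey), the 43 higher (red) and the 12 lower genes (blue); right, cumulative percent by log2 difference, 0.5 h minus control, for Zfp genes (green), Zbtb genes (purple) and all others (grey), with the axis ending at −0.7 and 0.7. The red curve lies left of the grey one, with medians of 6.55 and 22.6 kb, and the green and purple curves lie left of grey below 0, with medians of −0.04 and −0.10.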

How the data were processed

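Total RNA was measured on Affymetrix Mouse Genome 430 2.0 arrays, labelled from the poly-A tail with a 3′ IVT kit (500 ng of RNA, RNA integrity above 9.5), per the labels' protocols. Each probe set has a single deposited value per array from the authors, taken as log2 from its range; the summary and scaling methods are not given in the sources used here. Of 45101 probe sets, 34958 had 1 gene symbol in the platform annotation, 932 had several and 9211 were not listed; symbols were updated through Entrez numbers for 34754. Each gene is represented by its probe set of highest mean. Differences are 0.5 h minus control after raising values to the floor, and no test was possible. The replicate unit is 1 array per group, and samples were grouped by their titles.

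The comparison, gene lists and rules were chosen with earlier results of these data known. Named were all genes past 2-fold, the 20 highest and 20 lowest short of it with both arrays above the floor, the 5 brightest bounds past 1.5-fold, all list members past 1.5-fold with 3 highest and 3 lowest of each list, and cell type markers; other genes named were chosen after their values were seen. Alternatives covered floor, scaling, probe sets, thresholds and reference array. The calculation was checked on simulated arrays. Spans and promoter windows come from RefSeq GRCm38.p6. Python 3.11.15 with pandas 2.3.3 and numpy 2.4.6 was used, and R 4.3.3 with limma 3.58.1 for quantile and cyclic loess scaling.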

Additional observations from a re-analysis of the deposited data

Results flagged for a closer look

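Signals past 1.5-fold also appeared in probe sets outside the gene comparison. Of 2566 measured probe sets without a single symbol, 6 were higher at 0.5 h (0.234%), at 0.60, 0.60, 0.61, 0.65, 0.66 and 0.69 on the log2 scale, and 14 were lower (0.546%), 13 of which had their lowest value of the 4 arrays at 0.5 h. At 1.2-fold 80 were higher (3.12%) and 169 lower (6.59%), beside 2.61% and 2.5% of named genes. The units differ, since these are single probe sets and a named gene counts by its brightest one. Signal was not matched either, and the lower share of named genes ran from 4.35% in the dimmest to 0.657% in the brightest of 4 equal groups. Among control probe sets, the 3 for 18S ribosomal RNA were higher by 0.22, 0.96 and 1.44, and the 2 for the mouse B2 repeat by 0.60 and 0.26; the probe set for the B1 repeat was at −0.33. The 24 bacterial poly-A controls had a median of −0.05. The 18S probe sets were all lowest on the control array. Whether the 18S signal bears on any gene value was not tested.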

How the results depend on the processing

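Genes at least 2-fold higher numbered 16, but 9 by second brightest probe sets (5285 genes) and 10 at 3-fold. The 0 genes at least 2-fold lower became 1 with the floor at the 25th percentile, 1 with no floor and 2 with the 3 h array as reference. The 43 genes 1.5-fold higher became 28 with the floor at the 75th percentile, 76 with no floor and 18 by second brightest probe sets. The 12 lower genes became 23 with the floor at the 25th percentile, 2 at the 75th, 27 with no floor, 6 with the mean over probe sets, 27 with the 3 h reference, and 7 where every measured probe set had to pass, an alternative added after seeing the data. Under median centring, quantile or cyclic loess scaling, 54, 52 and 52 of the 55 called genes passed 1.5-fold the same way; with the mean over probe sets 41 did, with the 3 h reference 29, and by second brightest probe sets 16 of 26. Of the 27 lower genes with the 3 h reference, 3 were among the 12. With the 3 h array as reference Dnaja4 (−0.62), Hsph1 (−0.73), Krtap1-5 (−0.27), Cryab (−0.21), Hspb1 (−0.22) and Ggcx (0.03) changed sign. That reference is itself a LIPUS array, on which Ggcx was below its 0.5 h value and the others above theirs. Khdc4 (−0.05) changed sign with the mean over probe sets, and the cause was not tested. The cholesterol synthesis median was −0.04 against the 3 h array. No paired analysis was possible because each group has 1 array. Signal limits the lower genes, 10 of which have a mean under log2 8.16.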

Other observations

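Several genes that were not called at 0.5 h were already moving towards their later values. Fmod, a small proteoglycan of the matrix, measured log2 5.89 in control and 6.28, 6.85 and 6.89 at 0.5, 1 and 3 h. Slc5a3, the myo-inositol transporter, measured 8.90, 9.22, 9.73 and 10.02, and Ptx3, a secreted pattern recognition protein, 8.67, 9.02, 9.49 and 9.67. Klf10 and Junb, in contrast, were at 0.08 and 0.12 at 0.5 h, with signals of 10.42 and 9.10 at 1 h after 9.39 and 8.22 in control. Kcnq1ot1, a long nuclear noncoding RNA, dipped from 6.39 to 6.10 at 0.5 h and stood at 7.04 at 1 h. These genes were chosen after their values were seen, and with 1 array per time the order of the steps has no error.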
